A study of Mus musculus with 2 samples.

Results

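The genes described here encode enzymes that add or remove methyl and acyl groups on histones, and enzymes that methylate or oxidise cytosine in DNA. They were chosen by symbol among the protein-coding genes of the RefSeq annotation of GRCm38 (Kdm, Kmt, Setd, Ezh1 and Ezh2, Hdac, Kat, Sirt1 to Sirt7, Tet1 to Tet3 and Dnmt), which gave 71 of 21887 genes. The 71 comprised 28 histone writers, 36 histone erasers and 7 DNA enzymes. The label holds for most members but not for all: Setd3 methylates actin, Setd6 methylates mainly non-histone proteins, Sirt3, Sirt4 and Sirt5 are mitochondrial, Hdac6 acts mainly on tubulin, and Dnmt3l has no catalytic activity of its own.

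The study asked whether ALKBH5, an enzyme that removes N6-methyladenosine from RNA, also acts on genes through contact with DNA. Cells of Hepa1-6, a mouse hepatoma line, received an adenovirus for FLAG-ALKBH5 overnight in both groups, and CUT&Tag, in which an antibody directs the Tn5 transposase to cut and tag nearby chromatin, was run on 1 ALKBH5-FLAG library and 1 IgG library. IgG is a non-specific antibody that gives the background of the assay. The IgG sample's treatment tag names ALKBH6-FLAG while its protocol names the ALKBH5 virus, and the series text names primary hepatocytes while both samples are labelled Hepa1-6. ALKBH5 is overexpressed from a virus here, uninfected cells are not among the samples, and the sources used here do not name the antibody used against ALKBH5-FLAG. Peak lists hold no expression, so the cell label could not be checked by markers. Of Alb, Afp, Apoa1, Ttr and Hnf4a, hepatocyte genes, Afp held 1 ALKBH5 peak and the others held none, and IgG had 0 peaks at all 5. Peak calls numbered 12333 for ALKBH5-FLAG and 3378 for IgG, with median pileups of 9 and 5 fragments. With 1 library per group, nothing below has a replicate check, exact intervals cover counting error only, and library depth is unknown.

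Histone lysine methyltransferases and acetyltransferases, the writers, place marks that other proteins read, and demethylases, deacetylases and sirtuins remove them. Most MLL-type enzymes, encoded by Kmt2 and Setd1 genes, methylate lysine 4 of histone H3 at active promoters and enhancers. Ezh1 and Ezh2, in contrast, place the repressive Polycomb mark. Kdm enzymes and Tet enzymes are mostly dioxygenases that need iron and 2-oxoglutarate, the same chemistry that ALKBH5 uses on RNA, while Kdm1a and Kdm1b use a flavin. Tet proteins oxidise 5-methylcytosine, and Dnmt1 copies DNA methylation after replication.

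ALKBH5 peaks lay on, or within 1 kb of, 52 of the 71 enzyme genes (73.2%, 95% exact interval 61.4 to 83.1), against 39.2% of all protein-coding genes. IgG peaks did so at 18 (25.4%, 15.8 to 37.1), against 10.8% of all genes. Both lists marked a larger share of these genes than of genes at large. For IgG this depended on the cut. At a −log10 q of 5 or more, IgG peaks marked 2 of 71 (2.82%) and 2.89% of all genes. At a fold of 5 or more, they marked 13 of 71 (18.3%) and 5.52% of all genes. An ALKBH5 peak without any IgG peak was found at 35 genes (49.3%; all genes 30.1%) and both kinds at 17 (23.9%; all genes 9.14%). An IgG peak alone was found at 1, Hdac1, and neither at 18, counts that were not made over all genes. When the ALKBH5 list was held to its 3378 strongest peaks by −log10 q, the length of the IgG list, it marked 28 of the 71 genes (39.4%; all genes 14.6%). In the same step the genes with ALKBH5 and no IgG peak fell to 15 (21.1%; all genes 8.88%). Absence from the IgG list means that no peak was called there, not that no fragment was present.

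**Figure D1:**
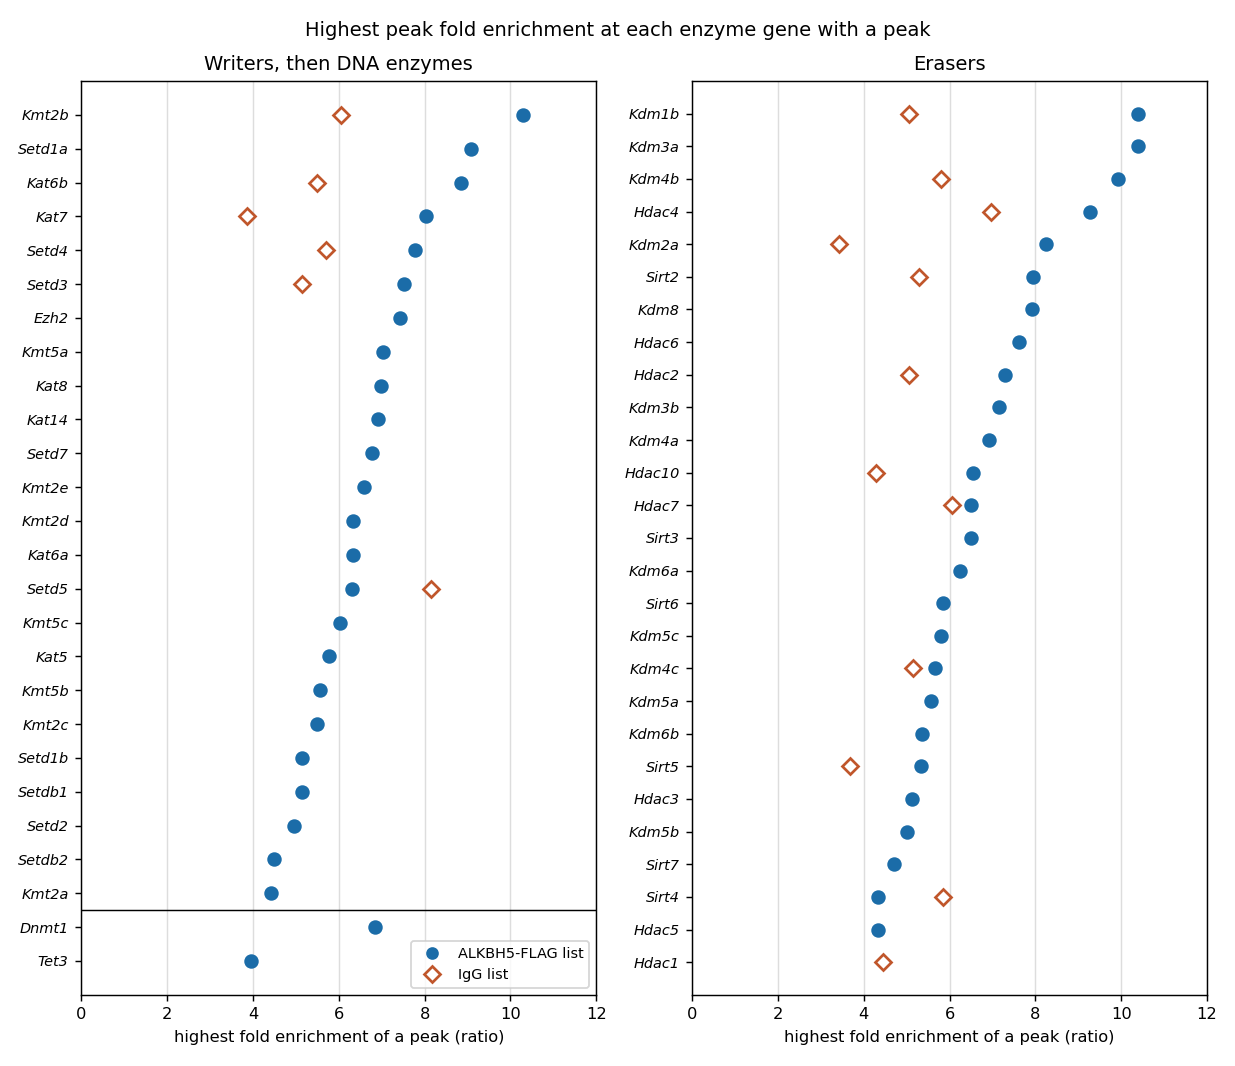
Highest fold enrichment of any peak on or within 1 kb of each enzyme gene that had a peak, in the ALKBH5-FLAG list (filled circles) and the IgG list (open diamonds). The x axis is the authors' fold enrichment, a ratio, 1 library per list. ALKBH5 values run from 3.95 at Tet3 to 10.4 at Kdm1b and Kdm3a, and at Setd5 and Sirt4 the IgG value is the higher.

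By class, set beside 39.2% of all genes, ALKBH5 peaks were listed at 24 of 28 writers (85.7%, 67.3 to 96.0), 26 of 36 erasers (72.2%, 54.8 to 85.8) and 2 of 7 DNA enzymes (28.6%, 3.67 to 71.0). Beside 10.8% of all genes, IgG peaks were listed at 6 writers (21.4%), 12 erasers (33.3%) and 0 DNA enzymes, a count that allows a share of up to 41.0%. Writers and erasers lay above the ALKBH5 share of all genes, and the interval of the DNA enzymes includes it. No test was made between classes, and the intervals of all 3 overlap.

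Enzyme genes are long, and long genes collect more peaks. Their median length was 42.4 kb, against 17.2 kb for all protein-coding genes. Among genes under 20 kb, ALKBH5 peaks marked 11 of 14 enzyme genes (78.6%) and 29.9% of all genes. The shares were 20 of 27 (74.1%) and 47.4% at 20 to 50 kb, and 16 of 20 (80.0%) and 54.1% at 50 to 100 kb. At 100 kb or more, 5 of 10 enzyme genes (50%) and 52.0% of all genes were marked, so the longest members did not stand above genes of their size. IgG shares were above those of all genes in each length class, for example 8 of 27 (29.6%) and 12.2% at 20 to 50 kb.

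**Figure D2:**
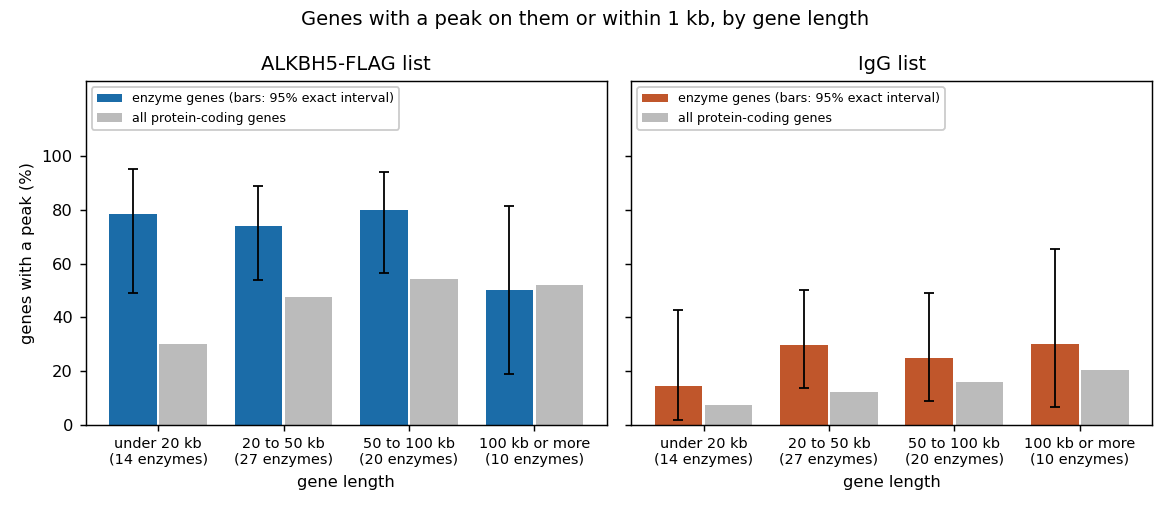
Share of genes with a peak on them or within 1 kb, in 4 classes of gene length, for the enzyme genes (coloured bars, with 95% exact intervals from counting) and all protein-coding genes (grey), in the ALKBH5-FLAG list (left) and the IgG list (right). For ALKBH5 the enzyme genes are above all genes in the 3 classes under 100 kb and near them at 100 kb or more (50% and 52.0%).

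Among the writers, all 8 Kmt2 and Kmt5 genes held an ALKBH5 peak (100%, 63.1 to 100, against 39.2% of all genes). Kmt2b, an MLL-type methyltransferase, had a pileup of 29 and a fold of 10.3 in the ALKBH5 list and a pileup of 7 and a fold of 6.04 in the IgG list, the ALKBH5 peak (GRCm38 chr7:30588809-30589656) also lying within 1 kb of Zbtb32. The other 7 had no IgG peak (87.5%, 47.3 to 99.7, against 30.1% of all genes with an ALKBH5 and no IgG peak). They included Kmt2d, of pileup 17 and fold 6.34, and Kmt2a, with 8 and 4.41, the lowest among marked writers when each gene is taken by its highest fold. Kmt5a, which monomethylates lysine 20 of histone H4, had a peak at each of 2 listed starts, with pileups of 19 and 9. Kmt5b, which adds further methyl groups to that residue, had 3 peaks, with pileups of 14, 11 and 4 and folds of 5.56, 4.44 and 4.03. The first 2 lay 540 and 954 bp downstream of a listed start and the third 7291 bp from the other end of the gene. Holding 3 or more ALKBH5 peaks was uncommon, at 3 of the 71 genes and 1.46% of all genes, while 2 or more were held by 9 of the 71 (12.7%) and 7.51% of all genes.

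Of the 10 Setd genes 9 were marked (90%, 55.5 to 99.7, against 39.2% of all genes), Setd6 being the exception. Setd1a, which encodes another H3 lysine 4 methyltransferase, had a pileup of 23 and a fold of 9.09 at its start and no IgG peak. A second Setd1a peak, of pileup 12 and fold 6.37, lay 450 bp beyond the 3′ end and within 1 kb of Hsd3b7. Setd3 and Setd4 each had a pileup of 13 in the ALKBH5 list, with folds of 7.53 and 7.78. Their IgG peaks had pileups of 5 and 6, with folds of 5.14 and 5.69. At Setd5, pileup was 36 in the ALKBH5 list and 14 in the IgG list, and the fold was 6.31 and 8.15, so the taller ALKBH5 peak had the lower fold. The Setd5 peak (chr6:113076006-113077482, its summit outside the 5′ end of the gene) stood on an implied local background of 4.86 fragments, against a median of 0.68 over all ALKBH5 peaks, and reached the noncoding gene Gt(ROSA)26Sor.

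Acetyltransferase genes were marked in 6 of 8 cases (75%, 34.9 to 96.8, against 39.2% of all genes). Kat6b, a MYST-family enzyme, had a pileup of 28 and a fold of 8.84 in the ALKBH5 list, against 6 and 5.50 in the IgG list, about 1 kb downstream of its start. Kat7, another MYST enzyme, had 22 and 8.04 in the ALKBH5 list, against 4 and 3.86 in the IgG list. Kat14, Kat5, Kat6a and Kat8 had ALKBH5 peaks with folds of 5.77 to 6.98 and no IgG peak, and the paralogues Kat2a and Kat2b had no peak in either list.

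Of the Polycomb pair, Ezh2 was marked and Ezh1 was not. Ezh2, the form typical of dividing cells, had an ALKBH5 peak of pileup 14 and fold 7.43, at chr6:47595035-47595552 with its summit 280 bp upstream of the start, and no IgG peak. Ezh1, the form typical of resting cells, had no peak in either list. The 250 bases before each start, from RefSeq on GRCm38.p6, are printed 5′ to 3′ with CpG pairs in capitals, to set the promoter of Ezh2, which its peak overlaps, beside that of its unmarked paralogue. The Ezh2 summit lies just upstream of the printed bases. They hold 23 CpG pairs at Ezh2 and 14 at Ezh1.
Ezh2 (chr6:47595031-47595280, minus strand): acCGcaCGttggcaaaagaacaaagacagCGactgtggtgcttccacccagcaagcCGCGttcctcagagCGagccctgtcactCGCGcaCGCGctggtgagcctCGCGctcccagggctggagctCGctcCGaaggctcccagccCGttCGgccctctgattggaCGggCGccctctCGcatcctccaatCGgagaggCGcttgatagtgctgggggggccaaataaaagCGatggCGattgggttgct
Ezh1 (chr11:101226464-101226713, minus strand): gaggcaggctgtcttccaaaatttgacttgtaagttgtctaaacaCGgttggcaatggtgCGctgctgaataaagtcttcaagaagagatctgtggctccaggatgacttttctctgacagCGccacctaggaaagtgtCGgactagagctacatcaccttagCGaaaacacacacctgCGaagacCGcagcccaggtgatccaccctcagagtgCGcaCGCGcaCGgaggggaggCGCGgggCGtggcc

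Erasers were led by demethylases. Kdm3a, which demethylates lysine 9 of histone H3, had a pileup of 24 and a fold of 10.4 at chr6:71632718-71633593, its summit 113 bp outside the 5′ end, and no IgG peak. Kdm1b, a flavin-dependent demethylase, reached the same fold with a pileup of 20, and an IgG peak of pileup 5 and fold 5.05 lay inside it. The Kdm1b peak was also within 1 kb of Tpmt. Kdm4b had a pileup of 23 and a fold of 9.92 in the ALKBH5 list, against 6 and 5.79 in the IgG list. Kdm2a, a CXXC-domain demethylase, held 3 ALKBH5 peaks: 1 of pileup 13 and fold 8.24 lay 674 bp outside the lower-coordinate end, 1 of pileup 9 and fold 4.17 lay inside the gene, and 1 of pileup 13 and fold 7.0 overlapped an IgG peak of pileup 3 and fold 3.42.

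Kdm6b, which removes the mark that Ezh2 places, held 3 ALKBH5 peaks (chr11:69411234-69411433, chr11:69411652-69411898 and chr11:69417562-69418244), all inside the gene and none within 1 kb of an annotated end. Their pileups were 18, 24 and 30, above the median of 12 over all member peaks, and their folds were 3.67, 4.77 and 5.36. The local background implied by those folds was 4.18 to 4.78 fragments. Kdm6b had no IgG peak. Its X-linked relative Kdm6a had 1 ALKBH5 peak, of pileup 8 and fold 6.25. Of the 18 Kdm genes 13 were marked (72.2%, 46.5 to 90.3, against 39.2% of all genes). Kdm1a, Kdm2b, Kdm4d, Kdm5d and Kdm7a had no peak in either list. Kdm5d on the Y chromosome and Kdm5c on the X chromosome are closely related in sequence, so the placement of reads between them may be uncertain, which was not tested. Kdm5c had an ALKBH5 peak with a pileup of 7.

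Among deacetylase genes, ALKBH5 marked 7 of 11 Hdac genes (63.6%, 30.8 to 89.1, against 39.2% of all genes). IgG marked 5 (45.5%, 16.7 to 76.6, against 10.8% of all genes), and 4 were in common (36.4%, against 9.14%). The IgG share of sirtuin genes was alike, at 3 of 7 (42.9%), and these intervals are wide. Hdac4, a class II deacetylase, had a pileup of 22 and a fold of 9.27 in the ALKBH5 list, against 8 and 6.96 in the IgG list. The ALKBH5 summit lay 255 bp upstream of a listed start and 15106 bp inside the annotated gene. A second ALKBH5 peak of Hdac4, of pileup 4 and fold 4.24, had its summit 290 bp outside the 5′ end. It was the only Hdac4 peak within 1 kb of a gene end. Hdac7 had 23 and 6.49 in the ALKBH5 list, against 9 and 6.06 in the IgG list. Hdac2 had 13 and 7.29 in the ALKBH5 list, against 5 and 5.05 in the IgG list, and Hdac10 had 10 and 6.55, against 4 and 4.28. Hdac1, the closest relative of Hdac2, had no ALKBH5 peak and 1 IgG peak of pileup 4 and fold 4.44. A processed copy of Hdac1 is annotated elsewhere in the genome. Whether this affects the placement of reads at the Hdac1 peak was not tested. Hdac3, Hdac5 and Hdac6 were marked by ALKBH5 alone, with folds of 5.13, 4.32 and 7.61, and Hdac8, Hdac9 and Hdac11 by neither.

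Of the 7 sirtuin genes 6 were marked by ALKBH5 (85.7%, 42.1 to 99.6, against 39.2% of all genes). Sirt1 had no peak in either list. Sirt2, a largely cytoplasmic deacetylase, had a pileup of 13 and a fold of 7.95 at its start, within 1 kb of Nfkbib. A second Sirt2 peak, of pileup 5 and fold 4.62, and an IgG peak, of pileup 5 and fold 5.28, lay inside the gene and did not overlap each other. Sirt4 had pileups of 25 and 20 in the ALKBH5 list and 10 in the IgG list, with folds of 4.33 and 3.49 in the ALKBH5 list and 5.85 in the IgG list. Like Setd5, Sirt4 had the higher fold in the IgG list, over an implied ALKBH5 background of 5.0 fragments. Sirt5 had an ALKBH5 peak of pileup 7 and fold 5.33 and a separate IgG peak of pileup 3 and fold 3.69, and Sirt3, Sirt6 and Sirt7 had ALKBH5 folds of 6.49, 5.85 and 4.71 without an IgG peak.

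In 5 of the genes with several listed starts, namely Dnmt1, Hdac7, Kdm3a, Kdm4c and Kmt5a, peaks lay near some starts and not others. At Kdm4c the ALKBH5 summit was 72 bp from the inner listed start and 9454 bp from the outermost one, at pileup 10 and fold 5.67, and an IgG peak of pileup 5 and fold 5.14 lay inside it. Printed below with CpG pairs in capitals are the 250 bases before both Kdm4c starts and before the Kdm3a start nearest the summit. They hold 20 CpG pairs at Kdm3a, 19 at the inner Kdm4c start and 0 at the outermost.
Kdm3a, start under the peak (chr6:71632918-71633167, minus strand): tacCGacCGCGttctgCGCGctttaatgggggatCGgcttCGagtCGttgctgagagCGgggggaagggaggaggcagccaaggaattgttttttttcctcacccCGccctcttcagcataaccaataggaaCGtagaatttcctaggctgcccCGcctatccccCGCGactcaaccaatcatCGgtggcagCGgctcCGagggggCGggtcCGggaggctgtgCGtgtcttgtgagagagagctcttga
Kdm4c, start under the peak (chr4:74251629-74251878, plus strand): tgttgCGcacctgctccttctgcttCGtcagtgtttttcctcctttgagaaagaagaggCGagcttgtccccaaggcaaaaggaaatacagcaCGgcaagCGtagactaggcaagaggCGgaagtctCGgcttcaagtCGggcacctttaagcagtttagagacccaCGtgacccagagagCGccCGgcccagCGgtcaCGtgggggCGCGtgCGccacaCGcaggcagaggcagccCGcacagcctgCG
Kdm4c, outermost start (chr4:74242247-74242496, plus strand): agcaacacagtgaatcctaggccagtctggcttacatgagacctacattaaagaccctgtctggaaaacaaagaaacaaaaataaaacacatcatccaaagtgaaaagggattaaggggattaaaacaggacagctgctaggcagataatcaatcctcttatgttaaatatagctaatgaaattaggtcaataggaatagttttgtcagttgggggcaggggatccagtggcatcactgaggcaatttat

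DNA enzymes had 3 ALKBH5 peaks in all, none within 1 kb of an annotated gene end. Dnmt1, the maintenance methyltransferase, nevertheless had a peak at a start: its summit lay 8 bp from one listed start and 348 bp from another, but 6917 bp from the outermost, which sets the end of the gene. A Dnmt1 transcript that begins upstream of the somatic start is known from oocytes. The Dnmt1 start peak was 813 bp wide (chr9:20952348-20953160), of pileup 16 and fold 6.85, and a second, inside the gene, had pileup 4 and fold 4.1. Tet3 had 1 peak (chr6:83441093-83441422), of pileup 11 and fold 3.95, 401 bp downstream of its listed start and 15931 bp from the gene end. Dnmt3a, Dnmt3b, Dnmt3l, Tet1 and Tet2 had no peak in either list. Printed with CpG pairs in capitals are the 250 bases before the Dnmt1 start nearest the summit, before the outermost Dnmt1 start and before the unmarked Tet2 start, which hold 7, 2 and 51 such pairs. The other Dnmt1 start near the peak, not printed, has 26 in its window.
Dnmt1, start nearest the summit (chr9:20952980-20953229, minus strand): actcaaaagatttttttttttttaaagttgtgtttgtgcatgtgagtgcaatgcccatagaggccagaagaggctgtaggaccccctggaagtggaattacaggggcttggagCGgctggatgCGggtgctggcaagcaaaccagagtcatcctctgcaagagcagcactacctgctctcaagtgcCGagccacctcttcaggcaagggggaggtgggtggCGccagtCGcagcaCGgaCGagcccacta
Dnmt1, outermost start (chr9:20959889-20960138, minus strand): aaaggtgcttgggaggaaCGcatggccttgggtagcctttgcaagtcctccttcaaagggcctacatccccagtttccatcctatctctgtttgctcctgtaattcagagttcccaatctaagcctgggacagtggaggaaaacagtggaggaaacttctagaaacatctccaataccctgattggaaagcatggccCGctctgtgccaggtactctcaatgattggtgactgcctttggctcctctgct
Tet2 (chr3:133544391-133544640, minus strand): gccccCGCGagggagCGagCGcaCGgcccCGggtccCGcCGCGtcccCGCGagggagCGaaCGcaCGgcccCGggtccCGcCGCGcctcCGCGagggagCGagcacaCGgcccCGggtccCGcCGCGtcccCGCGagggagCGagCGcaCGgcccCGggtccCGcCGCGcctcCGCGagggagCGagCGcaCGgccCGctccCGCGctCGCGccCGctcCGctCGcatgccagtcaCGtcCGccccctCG

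ALKBH5 peaks gathered at the starts of these genes. Gene starts with a strand were taken from RefSeq promoter entries, which matched 59 of the 71 members. Within 1 kb of a listed start, ALKBH5 peaks were found at 38 of 59 genes (64.4%, 50.9 to 76.4; all genes 32.9%) and IgG peaks at 10 (16.9%; all genes 6.59%). Counted at either annotated end, ALKBH5 marked 41 of 71 (57.7%; all genes 31.1%) and IgG 11 (15.5%; all genes 6.55%). Of the 11 genes marked by ALKBH5 but not at an end, 8 had a peak within 1 kb of a listed inner start: Dnmt1, Tet3, Hdac7, Kdm4c, Kdm6a, Kat5, Kat6b and Kmt2d. Of 34 ALKBH5 peaks at an end of a gene with known strand, 33 were nearest the 5′ end and 1, at Setd1a, the 3′ end. Over all genes with a strand, 93.7% were nearest the 5′ end.

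**Figure D3:**
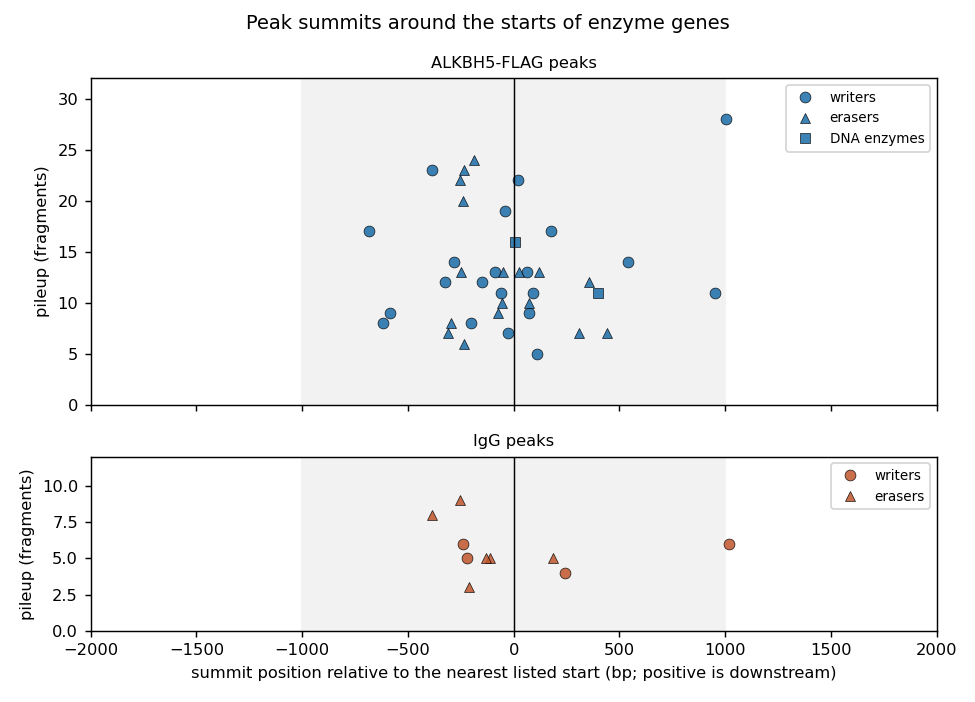
Peak summits of the enzyme genes by distance from the nearest listed start (x axis, bp, positive downstream) and pileup (y axis, fragments), for the ALKBH5-FLAG list (top) and the IgG list (bottom), with shapes for the 3 classes. Shading marks 1 kb either side of the start, which holds 39 of 49 ALKBH5 summits and 9 of 13 IgG summits with a listed start; summits beyond the plotted range are not drawn.

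Of 49 ALKBH5 summits at members with a listed start, 39 lay within 1 kb of it and 34 within 500 bp. The 39 had a median position of −56 bp relative to the start, with 23 upstream and 16 downstream. Of 13 IgG summits 9 lay within 1 kb, at a median of −211 bp. Some peaks are shared with a neighbour: 14 of the 64 ALKBH5 peak and gene pairs also lay on or within 1 kb of another protein-coding gene, such as Kdm5a with Ccdc77 and Sirt3 with Psmd13. Without such peaks ALKBH5 marked 42 of the 71 genes (59.2%, against 29.1% of all genes). Summit positions and pairs shared with a neighbour were not counted over all genes, so they cannot be read as traits of these members.

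In the ALKBH5 list member peaks were taller than peaks at genes in general, while in the IgG list the median pileup was the same. The 64 ALKBH5 peaks had a median pileup of 12 and a median fold of 6.28, against 9 and 5.75 for all ALKBH5 peaks on or near protein-coding genes. The 18 IgG peaks had a median pileup of 5 and a median fold of 5.21, against 5 and 4.96. Sharing at least 1 bp, 15 of the 64 ALKBH5 peaks (23.4%, 13.8 to 35.7) overlapped an IgG peak, against 15.2% of ALKBH5 peaks at all protein-coding genes. By height the shares were close to those of all genes. They were 2 of 29 (6.90%; all genes 6.91%) at pileups of 3 to 11, 4 of 21 (19%; 21.9%) at 12 to 19, and 9 of 14 (64.3%; 54.1%) at 20 or more. With 50% of both peaks required, 2 of the 64 overlapped.

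At the 15 shared sites the ALKBH5 peak was the taller each time, with pileups of 10 to 36 in the ALKBH5 list and 3 to 14 in the IgG list. The fold was higher in the ALKBH5 list at 13 and in the IgG list at 2, Setd5 and Sirt4. Summits lay 5 to 464 bp apart, with a median of 121 bp, and 13 of the IgG peaks lay wholly inside the ALKBH5 peak. The lists were not scaled to each other, so these values describe each list. Median pileup in the ALKBH5 list was 22 at the shared sites and 11 at the other 49 peaks. The values at shared sites were not computed over all genes, so they cannot be read as traits of these members. ALKBH5 peaks were taller and wider over the whole lists too, with median pileups of 9 and 5 and median widths of 382 and 233 bp.

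The letters before the starts differed with the presence of a peak. Over 85 listed starts of 59 members, the 250 bases upstream held a median of 20 CpG pairs (interquartile range 13 to 26) at the 49 starts with an ALKBH5 peak within 1 kb and 13.5 (5 to 22.5) at the 36 without. Over all protein-coding genes the medians were 18 and 5. CpG content did not order the members simply. ALKBH5 peaks lay near 5 of 19 starts with 0 to 9 CpG pairs (26.3%; all genes 9.53%), 19 of 29 with 10 to 19 (65.5%; 49.6%), 24 of 28 with 20 to 34 (85.7%; 60.2%) and 1 of 9 with 35 or more (11.1%; 53.2%). The 9 starts of highest CpG content belong to 7 genes, namely Kmt2c, which had the peak, and Kdm2b, Kdm7a, Kmt5a, Sirt1, Tet2 and Dnmt3a. IgG peaks lay near 0 of these 9, where 7.2% of all starts in that class had one. The Kmt5a start of the highest class lay little beyond 1 kb from an ALKBH5 peak. The CpG classes were chosen after the values were seen, and starts of 1 gene are not independent.

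**Figure D4:**
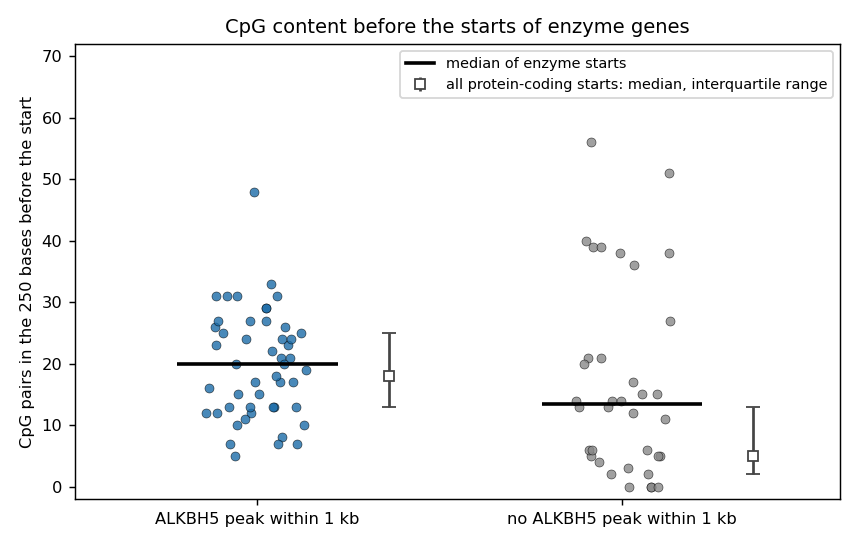
Number of CpG pairs in the 250 bases before each listed start of the enzyme genes (points), for 49 starts with and 36 starts without an ALKBH5 peak within 1 kb, with medians of 20 and 13.5 (lines). Open squares give the median and interquartile range over all protein-coding starts, 18 and 5, and the points above 35 on the right are starts of Kdm7a, Tet2, Dnmt3a, Sirt1, Kmt5a and Kdm2b.

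Within genes that had both kinds of start, the marked starts usually held more CpG pairs. In 4 of 5 such genes, Dnmt1, Hdac7, Kdm3a and Kdm4c, each start near a peak held more CpG pairs than each start away from one, for example 25 and 21 against 5 and 6 at Hdac7. Kmt5a was the exception, with 16 and 7 at the starts near a peak and 39 at the other. That other start, at chr5:124445499, lay little beyond 1 kb from the peak that begins at chr5:124446630, so the exception rests on the window. The 8 motifs listed here were searched on both strands in the same 250 bases. Each share is set beside the shares over the listed starts of all genes, split in the same way by an ALKBH5 peak within 1 kb. CCAAT was found before 25 of 49 member starts with a peak (51.0%; all genes 37.9%) and 9 of 36 without (25%; all genes 34.2%). GGGCGG was found before 34 with a peak (69.4%; all genes 66.4%) and 16 without (44.4%; all genes 31.5%), the first share being near that of all marked starts. CGGAAG was found before 11 with a peak (22.4%; all genes 31.3%) and 4 without (11.1%; all genes 10.5%). CACGTG was found before 3 with a peak (6.12%; all genes 9.65%) and 3 without (8.33%; all genes 5.22%), counts too small to order. TATAAA stood before 0 with a peak (all genes 4.52%) and 3 without (8.33%; all genes 15%). TGACGTCA and ATGGCGGC were found before none of the 85, and both are rare over the listed starts of all genes (1.92% and 1.22%). The NRF1 motif, searched as its palindromic core, was found before 1 of the 85, at Sirt6 (2.04% of member starts with a peak, against 2.13% for all genes). A match is a string of letters, not a binding site.

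Genes that act with these enzymes but fall outside the symbol rule were counted in the same way. Of 104 such genes 79 (76.0%; all genes 39.2%) had an ALKBH5 peak on or within 1 kb of them and 33 an IgG peak (all genes 10.8%). Acetyltransferase complex subunits were marked in 17 of 18 cases by ALKBH5 and 7 by IgG. Msl2 (fold 11.4), of the MSL complex, and Brpf1 (11.2), a scaffold of MYST complexes, were the highest. The Brpf1 peak overlapped an IgG peak, and the Msl2 peak did not. Polycomb subunits counted 8 of 12 for ALKBH5 and 4 for IgG, with folds of 11.6 at Phf19 and 9.63 at Suz12, a core partner of Ezh2. The Phf19 and Suz12 peaks both overlapped an IgG peak. DNA methylation partners counted 9 of 10 for ALKBH5 and 5 for IgG. Tdg, which excises oxidised methylcytosine, had an ALKBH5 fold of 10.6, and Mbd4, a repair glycosylase, 8.26, and both peaks overlapped an IgG peak.

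The remaining lists ran from 50 to 100% for ALKBH5, the lowest, other demethylases, being near the share of all genes. MLL complex subunits counted 8 of 11 for ALKBH5 and 4 for IgG, with Ash2l (6.67) and Wdr5 (6.45) the highest. Deacetylase complex subunits counted 12 of 19 and 5, with Gatad2b (8.53) and Gatad2a (7.81), of the NuRD complex, the highest. The Gatad2a peak overlapped an IgG peak, and the Gatad2b peak did not. Other lysine methyltransferases counted 11 of 13 and 1, with Smyd3 (7.65) and Ehmt1 (6.76). Arginine methyltransferases counted 6 of 9 and 4, with Prmt2 (11.9) and Carm1 (9.63), both at shared peaks. The acetyltransferases Crebbp (7.65), Ep300 (7.5), Hat1 and Naa40 were all marked by ALKBH5, and 2 of the 4 by IgG. The Crebbp peak overlapped an IgG peak, and the Ep300 peak did not. Other demethylases counted 4 of 8 and 1, with Jmjd6 (7.81) and Riox2 (7.64).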

How the data were processed

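CUT&Tag peak lists of 1 ALKBH5-FLAG and 1 IgG library were used. Per the submitters' processing notes, the tools were MACS2, R 3.4.1, SAMtools 1.3.1 and Bowtie2 2.2.9, on GRCm38 (mm10). Settings, read totals and any use of IgG as a control are unstated in the sources used here. The authors deposited each list per library in the MACS2 layout. The deposited pileup is a coverage signal, the fragments stacked at a summit, and the deposited fold enrichment is a ratio to local background. The deposited −log10 p and −log10 q columns had lost their headers and were read by their place in that layout. Scores and folds are the authors' values per peak and describe peaks within a list.

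Peaks were joined to RefSeq genes of GRCm38.p6 with Python 3.11.15 and pandas 2.3.3, within 1 kb and with at least 1 bp in common. Exact intervals were computed with SciPy 1.17.1. The implied background is pileup plus 1, divided by fold, minus 1. The overlap step was tested on simulated peaks. Starts come from RefSeq promoter entries, and none was used for Hdac1, Hdac3, Hdac10, Kat6a, Kdm2a, Kdm3b, Kdm4b, Kdm5a, Kdm6b, Kmt2b, Kmt2e and Setd1b. Named with full values were the 6 members of highest ALKBH5 fold per class, those with an IgG peak or with 3 or more ALKBH5 peaks, the DNA enzymes, Ezh1 and Ezh2, and 2 genes per related list. Further members were named after their values were seen. Members and lists were chosen with earlier results of these data known. With 1 library per group no test was made.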

Additional observations from a re-analysis of the deposited data

How the results depend on the processing

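Of 55 recounts under other settings, 44 stayed within 1.5 times the reported count and 11 did not. Holding ALKBH5 to its strongest peaks, in the number of the IgG list, gave 28 members (14 writers, 13 erasers and 1 DNA enzyme, Dnmt1). A gene-end peak was then found at 22 (31%; all genes 12%), and an ALKBH5 and no IgG peak at 15 (21.1%; all genes 8.88%). The shorter list itself lowers these counts, and the share of all genes with any ALKBH5 peak fell with it, to 14.6%. At a −log10 q of 5 or more, 1 DNA enzyme was marked by ALKBH5 (14.3%; all genes 23.7%). At that cut 22 members had an ALKBH5 and no IgG peak (31%; all genes 16.3%). IgG marked 2 members (2.82%; all genes 2.89%), Hdac4 and Setd5. At a fold of 5 or more 1 DNA enzyme was marked by ALKBH5 (14.3%; all genes 31.4%). IgG peaks at that fold marked 13 members (18.3%, against 5.52% of all genes), a count within 1.5 times the reported one. With 50% of both peaks required, 2 ALKBH5 peaks overlapped IgG (3.12%; all gene peaks 4.69%), at median widths of 506 bp for ALKBH5 and 260 bp for IgG member peaks. Among these and the other settings run for all members, the share with an ALKBH5 peak was above that of all genes each time, from 39.4% against 14.6% to 73.2% against 41.3%. Removing peaks that reach another coding gene was chosen after the data were seen. No paired analysis was possible because each group has 1 library. Pileups of 4 to 10 fragments underlie many peaks, and IgG peaks rest on 3 to 14, so a missing peak and low depth cannot be told apart.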
